A study of Mus musculus with 9 samples.

Results

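A set of 10 genes of the BCL2 family was followed in mouse tumours treated with digoxin, a cardiac glycoside that inhibits the sodium-potassium pump. They were the rows of the deposited expression table with the symbols Bcl2, Bcl2l1, Mcl1, Bcl2a1a, Bcl2a1b, Bcl2a1d, Bax, Bak1, Bbc3 and Bcl2l11, which are 10 of the 35321 genes in the table. All 10 passed the filter on low values, as did 13687 genes in all. The tumours were Lewis lung carcinoma (LLC), a lung cancer cell line of C57BL/6 mice, grown under the skin of male C57BL/6 mice that were 4 to 5 weeks old. Treatment by intraperitoneal injection began 5 days after the cells were implanted, and each group had 3 samples. The groups received phosphate-buffered saline (vehicle), 0.1 mg/kg digoxin (the low dose) or 1 mg/kg digoxin (the high dose). No group carries an engineered allele in the labels, and every group has the same line and the same host, which keeps its own immune and stromal cells. RNA was taken from tumour tissue with no sorting of cells in the labels, so lower expression per cell and fewer cells of a type cannot be told apart in any value below. Whether each sample is a different mouse is not stated in the labels, so a p-value here reflects the spread among samples, which may be technical.

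BCL2 family proteins control whether the outer mitochondrial membrane is opened in apoptosis. The effectors BAX and BAK form pores that release cytochrome c. The anti-apoptotic members BCL2, BCL-XL (from Bcl2l1), MCL1 and A1 (from the Bcl2a1 genes) bind and restrain the effectors and their activators. BH3-only proteins such as PUMA (from Bbc3) and BIM (from Bcl2l11) occupy the anti-apoptotic members or activate the effectors directly. A1 is known mainly from leukocytes, including neutrophils, macrophages, mast cells and activated lymphocytes, and in the mouse it is encoded by several near-identical gene copies on chromosome 9.

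Because the Bcl2a1 copies are so alike, their sequences bear on how far their values can be separated. The first 100 bases of each coding sequence (GENCODE vM21, build GRCm38) are given here, with capitals for the positions at which the 3 genes differ.
Bcl2a1a: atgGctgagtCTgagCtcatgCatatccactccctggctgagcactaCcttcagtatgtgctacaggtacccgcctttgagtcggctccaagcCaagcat
Bcl2a1b: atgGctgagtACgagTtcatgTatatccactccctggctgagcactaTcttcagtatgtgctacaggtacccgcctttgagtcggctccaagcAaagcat
Bcl2a1d: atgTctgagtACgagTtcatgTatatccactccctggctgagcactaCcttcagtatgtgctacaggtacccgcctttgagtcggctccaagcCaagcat
Over the 519 coding bases, Bcl2a1a and Bcl2a1b were 97.88% identical, Bcl2a1a and Bcl2a1d 98.65%, and Bcl2a1b and Bcl2a1d 98.84%. All 3 were identical over a run of 217 bases, from base 95 to base 311. Of all 150-base windows of the transcript, the length of 1 read, 28.21% in Bcl2a1a, 14.22% in Bcl2a1b and 30.25% in Bcl2a1d occurred unchanged in another of the 3 transcripts. How such reads were assigned is not given in the sources used here, so the value of each copy is uncertain and the sum of the 3 is given beside it.

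The 3 genes also share letters upstream of their starts, shown because the genes had like profiles across the samples. In the 60-base stretches below (RefSeq promoter windows, GRCm38.p6, each read along the gene's own strand), capitals mark TGANTCA, the letters of an AP-1 element, and GAGGAA, letters found in ETS-family sites such as those of PU.1.
Bcl2a1a: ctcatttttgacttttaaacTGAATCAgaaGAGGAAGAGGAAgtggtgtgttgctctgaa
Bcl2a1b: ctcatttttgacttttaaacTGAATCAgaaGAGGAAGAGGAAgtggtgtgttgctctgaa
Bcl2a1d: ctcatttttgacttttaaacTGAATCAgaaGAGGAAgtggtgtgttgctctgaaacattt
They lie at chr9:88956780-88956839 on the plus strand, chr9:89199089-89199148 on the plus strand and chr9:88731925-88731984 on the minus strand. The first capital stands 120, 164 and 114 bases before the start of Bcl2a1a, Bcl2a1b and Bcl2a1d. Searched on both strands, TGANTCA occurred in 7.81% and GAGGAA in 28.3% of all 32817 promoter windows of that length. The arrangement of TGANTCA followed on the same strand within 10 bases by GAGGAA, a search chosen after the windows had been read, occurred in 50 windows (0.152%), of which 3 were those of the Bcl2a1 genes. Patterns for NF-kB, CRE, CArG, FOXO and p53 half-sites were searched as well, with 0 matches in the windows of the 3 Bcl2a1 genes. Aligned over the whole window, Bcl2a1a and Bcl2a1d were 94.12% identical, Bcl2a1a and Bcl2a1b 73.84%, and Bcl2a1b and Bcl2a1d 70.57%. These are matches of letters in gene copies, and no binding was measured. A link between the letters and the profiles was not tested.

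The 9 libraries held 40517062 to 51810956 counted reads, a depth recovered from the spacing of the deposited values. Depth was 48649867 to 51810956 with vehicle, 42870997 to 43319883 at the low dose and 40517062 to 42252370 at the high dose. The groups thus did not overlap in depth, and its part in the differences from vehicle was not tested. In recovered reads the Bcl2a1 genes rested on 77 to 738 per library and the other members on 1048 to 27948. Low-dose sample 2 and high-dose sample 1 lay apart from the other samples of their groups. On the first principal component, which held 69.4% of the variance, they scored -0.604 and 9.12, against 35.7 to 37.9 for the other 4 digoxin samples and -55.0 to -47.6 for vehicle. Of the epithelial markers, Epcam and Cdh1 averaged at most 0.0559 and 0.480 FPKM (fragments per kilobase of gene, scaled to library depth) in any group, below the filter. The other epithelial markers, Krt8, Krt18 and Krt19, were tested and are given with the BH3-only genes. Genes were called at an adjusted p under 0.05 in 1 limma fit of log2(FPKM + 1) over all 9 samples, and differences below are on that scale, which understates the change of low genes.

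In vehicle tumours Mcl1 had the highest level of the 10 genes, 76.4 ± 0.828 FPKM (SD, n = 3). Bax followed at 44.2 ± 2.01, Bak1 at 36.9 ± 5.09, Bcl2l1 at 17.2 ± 1.18 and Bbc3 at 10.1 ± 0.257 FPKM. The samples of these 5 genes did not overlap between neighbours in the order. Bcl2l11, at 7.19 ± 0.536 FPKM, overlapped Bcl2a1d at 6.51 ± 0.616. Bcl2a1a, Bcl2 and Bcl2a1b, at 3.48 ± 0.570, 3.42 ± 0.322 and 2.96 ± 0.530 FPKM, could not be ordered beyond their spread. FPKM divides by a gene length that for these genes equalled the joined exons of the GENCODE gene, from 817 bases for Bcl2a1b to 9157 for Bcl2, so a gene whose shorter transcripts predominate is placed too low.

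Digoxin at the low dose changed 8 of the 10 genes, 7 upward and 1 downward. Among all genes tested 42.2% were called in this comparison, 21.6% higher and 20.7% lower. That split was 2952 genes higher and 2829 lower, and became 2403 and 3552 with quantile scaling and 2368 and 3790 with rescaling to TPM. By role, 6 of 6 anti-apoptotic genes rose, and of the BH3-only genes Bbc3 rose and Bcl2l11 fell. Of the 2 effectors 0 were called, with adjusted p of 0.0704 for Bax and 0.0557 for Bak1. The 6 include the near-identical copies Bcl2a1a, Bcl2a1b and Bcl2a1d, whose values may share reads, so these do not count as separate observations. Without vehicle sample 2 the count of members called was 5, 4 upward and 1 downward. Bcl2, Bcl2a1a and Bcl2a1b were then no longer called (adjusted p = 0.0728, 0.0566 and 0.0523). The groups did not overlap for any of the 10 genes, 9 higher and 1 lower. Of all genes 60.2% did not overlap, 32.3% higher and 27.9% lower. The median difference of the 10 was 0.57, beside 0.018 over all genes.

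Digoxin at the high dose changed 4 of the 10 genes. Bcl2l1, Mcl1 and Bbc3 rose and Bcl2l11 fell, and these were also the 4 whose samples did not overlap those of vehicle. Of all genes tested, 45.9% were called in this comparison, 20.7% higher and 25.2% lower, and 58.3% did not overlap, 25.2% higher and 33.1% lower. The median difference of the 10 was 0.037, beside -0.037 over all genes. The share of members called was near the background at the high dose. Both comparisons use the same vehicle samples.

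**Figure D1:**
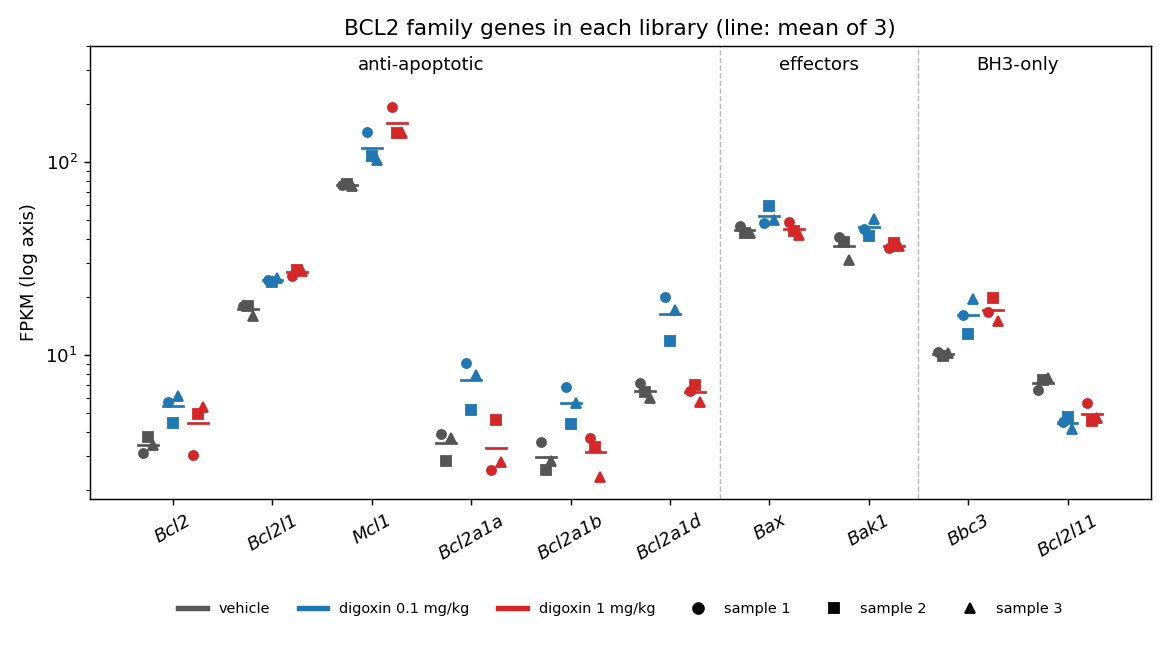
FPKM of the 10 BCL2 family genes (vertical axis, log scale) in each of the 9 libraries, with colour for the group, symbol for the sample and a line at the mean of 3. Mcl1 stands highest in every group, the 3 Bcl2a1 genes have their highest means in the low-dose group, and Bcl2l11 lies below its vehicle values at both doses.

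Mcl1, a short-lived survival protein needed by many cell types, read 76.4, 77.2 and 75.6 FPKM in the vehicle samples. It read 143, 108 and 102 FPKM at the low dose and 194, 141 and 142 FPKM at the high dose. Every digoxin sample exceeded every vehicle sample, and the 2 doses overlapped only through low-dose sample 1. Mcl1 rose by 0.60 (SE 0.15, adjusted p = 0.0154) at the low dose and by 1.03 (SE 0.15, adjusted p = 0.00164) at the high dose. The call at the low dose was lost without vehicle sample 3 (adjusted p = 0.0516). Between the doses the difference was 0.43 (SE 0.15, unadjusted p = 0.0218), with an adjusted p of 0.277.

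Bcl2l1, whose main product BCL-XL guards mitochondria in epithelial, erythroid and neuronal cells, read 17.9, 17.9 and 15.9 FPKM with vehicle. It read 24.5, 23.8 and 25.2 FPKM at the low dose and 25.5, 27.7 and 27.1 FPKM at the high dose. The 3 groups did not overlap, with the samples of the higher dose above those of the lower. Bcl2l1 rose by 0.49 (SE 0.07, adjusted p = 0.00203) and 0.61 (SE 0.07, adjusted p = 0.000765), and the difference between the doses was 0.12 (adjusted p = 0.513). The values are sums over transcripts, so the long anti-apoptotic and short pro-apoptotic products of Bcl2l1 are not separated, and the same holds for Mcl1.

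Bcl2, the founding member of the family, read 3.10, 3.75 and 3.42 FPKM with vehicle, 5.72, 4.45 and 6.14 at the low dose, and 3.04, 4.92 and 5.37 at the high dose. The higher dose was split, with sample 1 below all vehicle samples and the other 2 above them. Bcl2 rose by 0.53 (SE 0.18, adjusted p = 0.0401) at the low dose, and at the high dose the difference was 0.27 (SE 0.18, adjusted p = 0.234). The first call was lost in 5 of 9 fits that each left out 1 sample (any vehicle sample, or low-dose sample 1 or 3), with adjusted p up to 0.132 without low-dose sample 3. Without high-dose sample 1 the difference at that dose was 0.48 and passed the threshold (adjusted p = 0.0161).

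The 3 Bcl2a1 genes rose at the low dose. Their summed level was 14.6, 11.8 and 12.5 FPKM with vehicle, 35.9, 21.4 and 30.5 FPKM at the low dose, and 12.7, 14.9 and 10.8 FPKM at the high dose. The low-dose samples were all above the other 6, and those at the high dose overlapped vehicle. Bcl2a1d held the largest share of the sum, 50.4 ± 3.63% with vehicle, 55.5 ± 0.292% at the low dose and 50.2 ± 2.92% at the high dose (SD, n = 3).

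Bcl2a1d read 7.17, 6.42 and 5.95 FPKM with vehicle, 19.9, 11.8 and 17.0 at the low dose, and 6.47, 7.03 and 5.72 at the high dose. It rose by 1.17 (SE 0.17, adjusted p = 0.00173) at the low dose, the largest difference of the 10 genes in that comparison. At the high dose the difference from vehicle was -0.021 (SE 0.17, adjusted p = 0.930). Bcl2a1a read 3.89, 2.83 and 3.72 FPKM with vehicle, 9.11, 5.20 and 7.84 at the low dose, and 2.54, 4.57 and 2.80 at the high dose. Its differences were 0.88 (SE 0.22, adjusted p = 0.0144) and -0.079 (SE 0.22, adjusted p = 0.790). Bcl2a1b read 3.55, 2.52 and 2.81 FPKM with vehicle, 6.85, 4.39 and 5.65 at the low dose, and 3.71, 3.35 and 2.33 at the high dose. Its differences were 0.74 (SE 0.18, adjusted p = 0.0129) and 0.053 (SE 0.18, adjusted p = 0.827). In all 3 copies sample 2, which lay apart on the first component, was the lowest at the low dose, yet still above every vehicle sample. The call of Bcl2a1a was lost without vehicle sample 2, low-dose sample 1 or low-dose sample 3 (adjusted p = 0.0566, 0.0537 and 0.0536), and that of Bcl2a1b without vehicle sample 2 (adjusted p = 0.0523).

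Between the doses the Bcl2a1 genes had the largest differences of the 10 but did not pass the adjusted threshold. Bcl2a1d differed by -1.20 (SE 0.17, unadjusted p = 6.89e-05, adjusted p = 0.0796), Bcl2a1a by -0.96 (SE 0.22, adjusted p = 0.135) and Bcl2a1b by -0.68 (SE 0.18, adjusted p = 0.174). Of the 13687 genes tested, 0.0146% were called between the doses, 2 genes and both lower at the high dose, and 0 of the 10 members. At an unadjusted p under 0.05 there were 6 of the 10 members and 1856 of the 13687 genes, and limma-voom on the recovered reads also called 0 members. Samples of the 2 doses did not overlap for 5 members, Bcl2l1 higher and Bcl2a1a, Bcl2a1b, Bcl2a1d and Bak1 lower, where 17% of all genes did not overlap, 6.05% higher and 11% lower. Without low-dose sample 2 Bcl2a1d fell by 1.39 (adjusted p = 0.00595). Without both libraries that lay apart, Bcl2a1d (-1.40, adjusted p = 0.00469), Bcl2a1a (-1.04, adjusted p = 0.0373) and Bcl2a1b (-0.93, adjusted p = 0.0357) were all called, among 465 genes.

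Some leukocyte marker lists were also highest at the low dose, and others were not. The sum of 9 T cell markers ranged from 16.5 to 19.5 FPKM with vehicle, 34.96 to 60.9 at the low dose and 5.98 to 23.7 at the high dose, and of the 7 tested 6 rose at the low dose while Cd4 alone was called, lower, at the high dose. The sum of Ptprc, Coro1a and Laptm5, expressed across leukocytes, was 117 to 131, 139 to 199 and 116 to 127 FPKM, and Coro1a and Laptm5 rose at the low dose. Ptprc, a small part of that sum, averaged 4.35, 4.73 and 3.61 FPKM. It was not called at the low dose (0.082, adjusted p = 0.651) or at the high dose (-0.22, adjusted p = 0.219). The 11 macrophage markers summed to 2768 to 3093, 2882 to 4405 and 1930 to 3192 FPKM, with 4 higher at the low dose and 4 higher and 2 lower at the high dose. Lyz2, the largest part of that sum, averaged 1661, 1524 and 1322 FPKM and was not called at either dose. The 12 neutrophil markers summed to 85.0 to 229, 167 to 850 and 538 to 1261 FPKM, with 7 higher at the low dose and 10 at the high dose, at which the Bcl2a1 sum overlapped vehicle. The 5 mast cell markers summed to 17.7 to 23.1, 33.9 to 56.4 and 9.14 to 80.02 FPKM, with 0 of 4 tested called at either dose (1 fit, limma). The 4 B cell markers summed to 0.882 to 1.62, 10.05 to 12.37 and 2.79 to 14.34 FPKM. Of the 2 tested, Cd79a was higher at each dose and passed the filter through digoxin samples alone. Cd79b averaged 0.804, 1.84 and 0.446 FPKM and was not called (adjusted p = 0.104 and 0.349). The 4 natural killer cell markers summed to 1.07 to 1.43, 2.34 to 3.33 and 2.34 to 3.101 FPKM. Only 1 was tested, Eomes, which was higher at each dose (means of 0.153, 1.41 and 1.91 FPKM). Eomes passed the filter through digoxin samples alone, and the higher sum rests largely on it. Below the filter, Ncr1 averaged 0.447, 0.297 and 0.390, Klrb1c 0.306, 0.426 and 0.286, and Klre1 0.360, 0.576 and 0.201 FPKM. The sum of 5 dendritic cell markers was lower with digoxin. It was 9.72 to 10.37 FPKM with vehicle, at most 6.75 at the low dose and 2.805 to 3.93 at the high dose. Of the 2 tested, Clec9a fell at each dose, from a mean of 7.37 to 1.40 and 0.809 FPKM, while Ccr7 rose at the low dose. Clec9a was the largest part of the vehicle sum. Below the filter, Zbtb46 averaged 0.669, 0.742 and 0.714, Flt3 0.318, 0.276 and 0.159, and Xcr1 0.142, 0.137 and 0.0366 FPKM. No marker of these lists was at 0 in every library. Their part in the Bcl2a1 values was not tested.

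**Figure D2:**
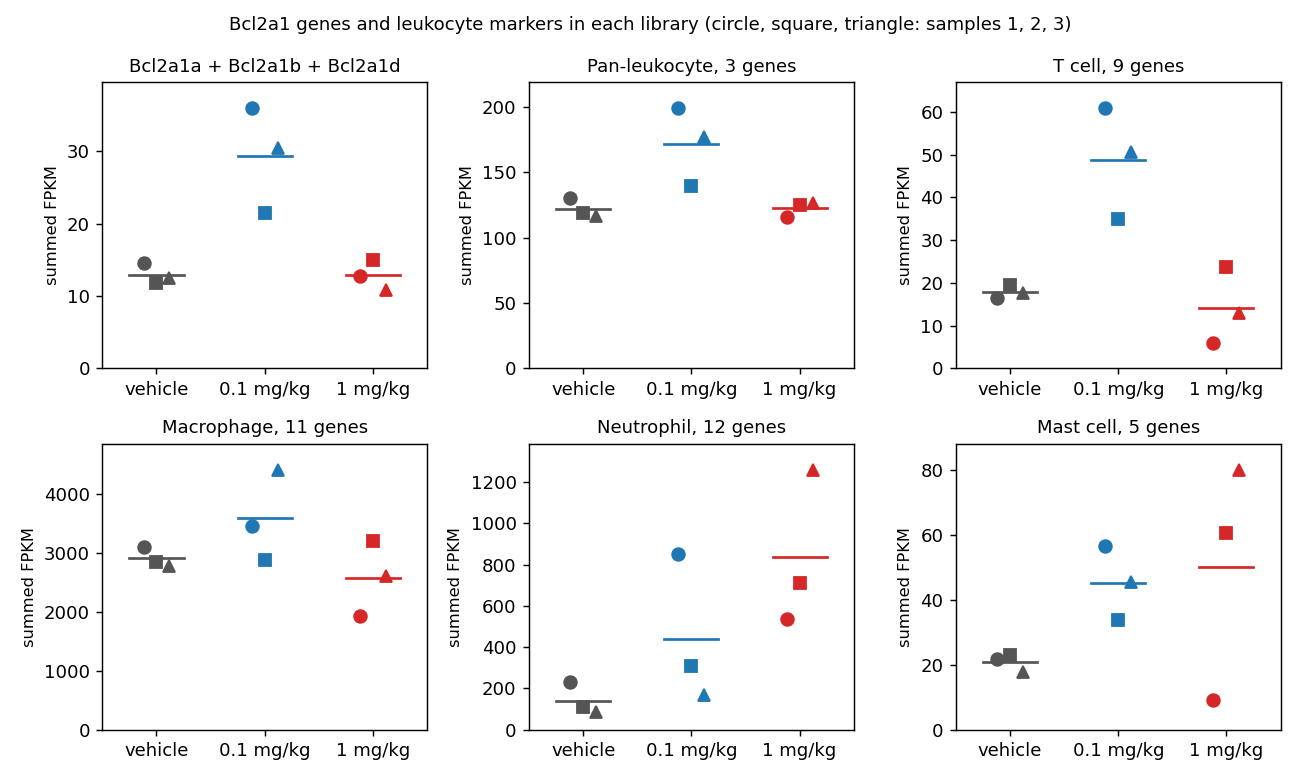
Summed FPKM (vertical axes, from 0) of the 3 Bcl2a1 genes and of 5 leukocyte marker lists in each library, by group, with a line at the mean of 3. The Bcl2a1, pan-leukocyte and T cell sums are highest in the low-dose samples, and the neutrophil sum has its highest group mean at the high dose.

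The effectors had smaller differences. Bax read 46.5, 43.1 and 43.0 FPKM with vehicle, 48.3, 59.3 and 50.3 at the low dose, and 48.9, 44.1 and 41.9 at the high dose. Every sample at the low dose was above vehicle, by 0.24 on average (SE 0.10, unadjusted p = 0.0334, adjusted p = 0.0704), and the high-dose samples spanned the vehicle range (0.022, SE 0.10, adjusted p = 0.868). Bak1 read 41.0, 38.5 and 31.2 FPKM with vehicle, 45.2, 41.2 and 51.0 at the low dose, and 35.8, 37.9 and 36.8 at the high dose. Its differences from vehicle were 0.31 (SE 0.11, unadjusted p = 0.0245, adjusted p = 0.0557) and 0.0069 (SE 0.11, adjusted p = 0.966). The low-dose samples lay above all the others for Bak1. Both effectors sat close to the threshold at the low dose: Bak1 passed it without vehicle sample 1 (adjusted p = 0.0447) or low-dose sample 2 (adjusted p = 0.0306), and Bax without high-dose sample 1 (adjusted p = 0.0468).

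The BH3-only genes moved in opposite directions. Bbc3, which encodes PUMA and is a classical p53 target, read 10.4, 9.86 and 10.2 FPKM with vehicle, 16.1, 12.9 and 19.4 at the low dose, and 16.7, 19.8 and 15.1 at the high dose. It rose by 0.60 (SE 0.14, adjusted p = 0.0117) and 0.70 (SE 0.14, adjusted p = 0.00568). Bcl2l11, which encodes BIM, a killer induced by loss of growth factor signals in many cells, read 6.57, 7.43 and 7.56 FPKM with vehicle, 4.48, 4.77 and 4.11 at the low dose, and 5.61, 4.56 and 4.71 at the high dose. It fell by 0.59 (SE 0.10, adjusted p = 0.00307) and 0.46 (SE 0.10, adjusted p = 0.00646). For both genes all 6 digoxin samples lay on 1 side of all 3 vehicle samples, and the doses overlapped. Markers of other cells are given beside these genes. The 5 epithelial markers summed to 46.1 to 67.9 FPKM with vehicle, 81.7 to 109 at the low dose and 112 to 137 at the high dose, and their members differed in direction. Krt8 averaged 2.76, 85.6 and 115 FPKM and Krt19 0.269, 3.62 and 8.81, both called higher at each dose, while Krt18 averaged 55.7, 6.46 and 3.65 FPKM and was called lower at each dose. The sum of 5 fibroblast markers was 382 to 403, 190 to 283 and 215 to 272 FPKM, with Pdgfra and Dcn called lower at each dose and Lum at the high dose. Col1a1, of the same list, rose from 40.1 ± 16.3 to 107 ± 33.9 and 142 ± 23.6 FPKM (adjusted p = 0.00913 and 0.00261). The sum of 5 skeletal muscle markers was 42.2 to 94.1, 146 to 258 and 72.3 to 789 FPKM, so that the high dose overlapped vehicle, and 2 of the 5 were called higher at each dose. Their part in the values of Bcl2l1, Mcl1, Bbc3 and Bcl2l11 was not tested. Between the doses Bbc3 differed by 0.094 (SE 0.14, adjusted p = 0.838) and Bcl2l11 by 0.13 (SE 0.10, adjusted p = 0.643).

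**Figure D3:**
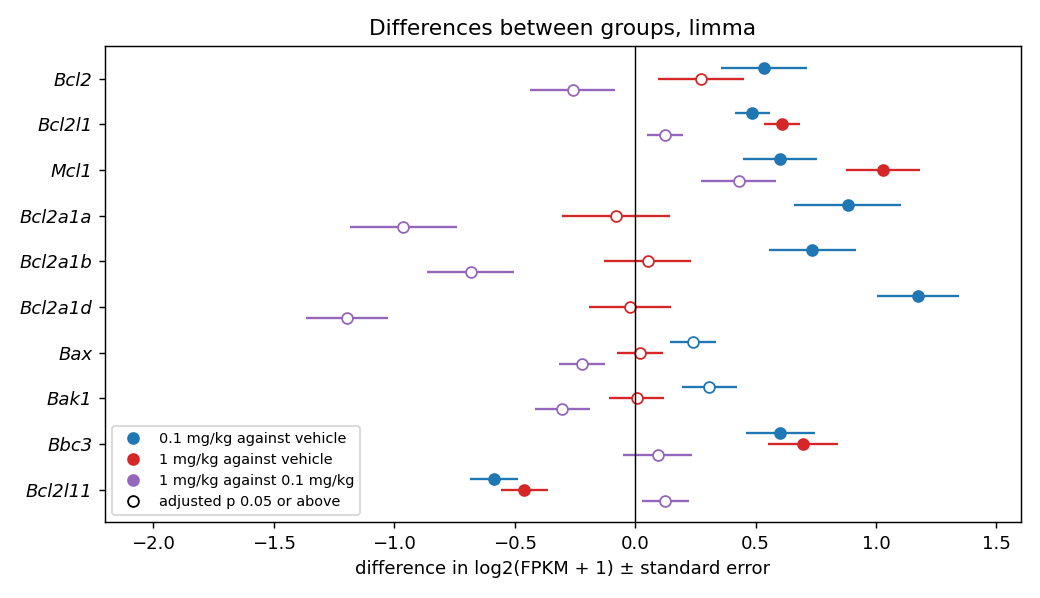
Differences in log2(FPKM + 1) with standard errors (horizontal axis) for the 10 genes in the 3 comparisons, with filled points for adjusted p under 0.05 in limma. Bcl2l1, Mcl1, Bbc3 and Bcl2l11 are filled at both doses against vehicle, and no point is filled between the doses.

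Ratios of members within a library do not depend on the scaling between libraries, and are given as descriptions. The ratio of Mcl1 to Bcl2l11 was 11.6, 10.4 and 10.0 with vehicle, 31.9, 22.6 and 24.8 at the low dose, and 34.5, 30.9 and 30.2 at the high dose. All 6 digoxin libraries stood above all vehicle libraries, which follows from the non-overlapping rise of Mcl1 and fall of Bcl2l11 and adds no separate result. The ratio of Bbc3 to Bcl2l11 averaged 1.42 ± 0.136, 3.68 ± 1.01 and 3.50 ± 0.725 (SD, n = 3). Its digoxin libraries were above vehicle, which likewise follows from the non-overlapping changes of the single genes. Mcl1 to Bbc3, 2 genes that both rose, averaged 7.53 ± 0.260, 7.49 ± 1.95 and 9.38 ± 2.23, and its groups overlapped. Bcl2l1 to Bax averaged 0.390 ± 0.0234, 0.469 ± 0.0590 and 0.599 ± 0.0671, and the high-dose libraries were all above the others. Bcl2 to Bax averaged 0.0777 ± 0.0103, 0.105 ± 0.0262 and 0.101 ± 0.0343. Mcl1 supplied 69.5 ± 1.15% of the summed FPKM of the 6 anti-apoptotic genes with vehicle, 66.4 ± 3.54% at the low dose and 77.9 ± 3.98% at the high dose. The ratio of Bbc3 to Bcl2l11 and the Mcl1 share were added after the values had been seen.

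**Figure D4:**
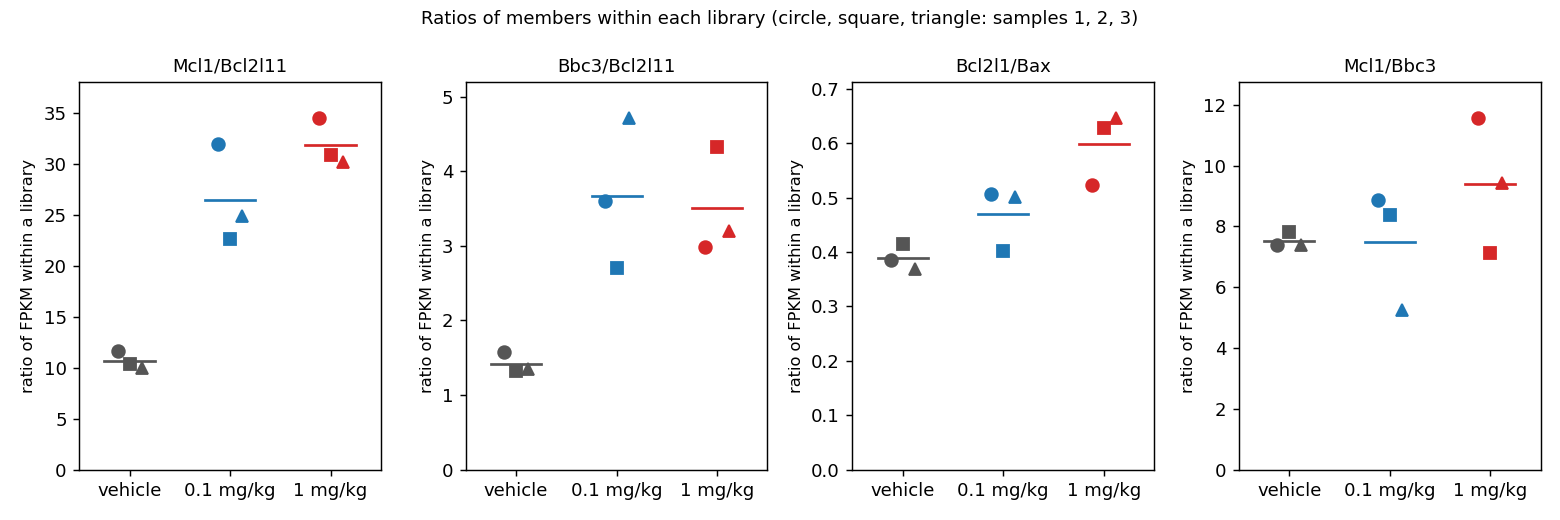
Ratios of FPKM between members within each library (vertical axes, from 0), by group, with a line at the mean of 3. The ratios of Mcl1 and of Bbc3 to Bcl2l11 are above vehicle in all 6 digoxin libraries, as follows from the changes of the single genes. The ratio of Mcl1 to Bbc3 overlaps between groups.

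Other genes of the pathway are given from lists by role, with the count called against vehicle. Each count is to be read beside the share of all tested genes called. That share was 42.2% at the low dose (21.6% higher, 20.7% lower) and 45.9% at the high dose (20.7% higher, 25.2% lower). Of 8 tested genes among the other BCL2 family members, Bcl2l12 rose and Bmf and Bcl2l13 fell at the low dose, and Bok, Bmf and Bcl2l13 fell at the high dose. The list's medians were 0.049 and 0.045. Bmf, a BH3-only gene, went from 3.42 ± 0.728 to 1.999 ± 0.283 and 1.98 ± 0.608 FPKM (-0.55, adjusted p = 0.0359, and -0.58, adjusted p = 0.0281). Bok, an effector-like member, went from 27.6 ± 1.37 to 18.3 ± 6.96 and 15.6 ± 3.60 FPKM (-0.62, adjusted p = 0.0610, and -0.80, adjusted p = 0.0234). Bcl2l13, a mitochondrial member, was 5.25 ± 0.0187, 3.49 ± 0.0555 and 4.19 ± 0.0433 FPKM.

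Downstream of the mitochondrion, 13 genes of the apoptosome, caspases and their inhibitors were tested. At the low dose 2 rose and 4 fell, and at the high dose 2 rose and 6 fell, with medians of -0.18 and -0.24. Casp6, a caspase, rose (0.34, adjusted p = 0.0123, and 0.46, adjusted p = 0.00336), as did Birc3, an inhibitor of apoptosis induced by NF-kB (0.69 at each dose, adjusted p = 0.0136 and 0.0122). Apaf1, Casp9 and Xiap fell at both doses.

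Of 9 tested death receptor genes 4 rose and 0 fell at the low dose, and 3 rose and 0 fell at the high dose, with medians of 0.17 and 0.24. Fas, the receptor of Fas ligand, went from 1.98 ± 0.680 to 6.47 ± 3.15 and 6.15 ± 0.986 FPKM (1.27, adjusted p = 0.00876, and 1.28, adjusted p = 0.00750). Tnfrsf1a, the main receptor of tumour necrosis factor, rose by 0.50 (adjusted p = 0.0102) and 0.48 (adjusted p = 0.0101). Of the 7 outer membrane and cristae partners 0 rose and 2 fell at the low dose, and 1 rose and 2 fell at the high dose, with medians of -0.10 and -0.18. Opa1, which shapes the cristae, fell by 0.46 and 0.44, and Vdac1, a pore of the outer membrane, rose at the high dose (0.45, adjusted p = 0.00195).

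The last lists concern how the members are made and degraded. Of 5 tested genes whose proteins bind or degrade MCL1 or BIM, or stabilise them, 2 fell at the low dose and 1 at the high dose, with medians of -0.067 and -0.097. Huwe1, a ubiquitin ligase of MCL1, fell from 16.9 ± 1.76 to 11.4 ± 1.19 and 11.5 ± 0.285 FPKM (-0.52, adjusted p = 0.00473, and -0.51, adjusted p = 0.00431). Usp9x, a deubiquitinase that stabilises MCL1, fell at the low dose (-0.36, adjusted p = 0.0239) and differed by -0.074 (adjusted p = 0.585) at the high dose. Of 13 tested transcription factors known to act on members, 4 rose and 3 fell at the low dose, and 4 rose and 2 fell at the high dose, with medians of 0.042 and 0.10.

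Trp53, whose protein induces Bbc3 and Bax, went from 62.4 ± 0.704 to 41.9 ± 10.0 and 36.0 ± 2.18 FPKM (-0.59, adjusted p = 0.0123, and -0.78, adjusted p = 0.00352). Foxo3, a known activator of Bcl2l11 and Bbc3, fell by 0.58 (adjusted p = 0.00608) and 0.37 (adjusted p = 0.0326). Ddit3, which encodes the stress factor CHOP, rose by 1.19 (adjusted p = 0.00161) and 1.35 (adjusted p = 0.000885), and Atf4 by 0.64 (adjusted p = 0.00892) and 0.88 (adjusted p = 0.00228). Spi1, which encodes the myeloid factor PU.1, went from 25.4 ± 2.66 to 44.9 ± 9.63 and 33.4 ± 2.68 FPKM (0.78, adjusted p = 0.00576, and 0.38, adjusted p = 0.0717). These are transcript levels, and the activity of the factors was not measured. No gene of the 6 lists was called between the doses by limma.

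The genes whose profiles over the 9 samples were most like each member were ranked by the root mean square difference of log2(FPKM + 1) after centring, among 11659 genes. For Bcl2a1a they were Cd3g, Pycard and Sirpb1a, with a difference of 0.129 for Cd3g beside a median of 0.539 over the genes compared. Cd3g encodes a chain of the T cell receptor complex and averaged 1.48 ± 0.142, 3.34 ± 1.06 and 1.00 ± 0.606 FPKM over vehicle, low and high dose. For Bcl2a1b they were Sirpa, Gpr18 and Aldh1b1 (0.124 for Sirpa, median 0.452). Gpr18 averaged 0.516 ± 0.0787, 1.40 ± 0.314 and 0.465 ± 0.165 FPKM. It thus passed the filter only through the low-dose group, in which Bcl2a1b was highest. For Bcl2a1d they were Cd52, Sirpb1a and Aif1 (0.161 for Cd52, median 0.624), and Cd52, a leukocyte surface glycoprotein, averaged 47.0 ± 1.84, 110 ± 28.7 and 53.3 ± 6.33 FPKM.

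For Mcl1 the nearest profiles were those of Lonrf3, Ulk3 and Pim3 (0.0944 for Lonrf3, median 0.528). Lonrf3 averaged only 0.228 ± 0.0557, 1.08 ± 0.423 and 1.89 ± 0.531 FPKM, levels at which log2(FPKM + 1) understates change. It passed the filter through digoxin samples alone, in which Mcl1 was higher. Pim3, a serine-threonine kinase, averaged 32.9 ± 2.15, 52.5 ± 5.42 and 72.8 ± 5.27 FPKM. Bcl2l1 was nearest to Tctn3, Fez2 and Ppp2ca, and Bcl2 to Gtf3c2, Ikbke and Ero1b. Bax was nearest to Capg, Tekt2 and Snrpe, and Bak1 to Arap1, Pop4 and Blvra. Bbc3 was nearest to Cers6, Rbpms and Sun2 (0.0652 for Cers6, median 0.416). Among the genes nearest to Bcl2l11 were Cand1 and Spen (0.0455 for Cand1, median 0.327), and Cand1 averaged 22.6 ± 1.57, 15.1 ± 0.943 and 16.4 ± 1.17 FPKM. These measures of likeness are descriptions over samples that share their libraries and groups.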

How the data were processed

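Poly(A) RNA of 9 tumour samples was sequenced as paired 150-base reads, per the labels. The authors deposited 1 table of FPKM per gene, per the file headers. fastp 0.22.0, HISAT2 2.2.1 and the build name GRCh38 stand in the submitters' processing notes. GRCh38 is a human build, while the symbols are mouse symbols and the recovered gene lengths equal GENCODE vM21 mouse gene models for 12452 of 13035 genes (95.53%) and for all 10 members. The gene counter is not given in the sources used here. From the spacing of low FPKM values the depth and whole reads were recovered (13680 of 13687 tested genes, 99.9489%, whole within 0.03 reads).

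The filter asked for 1 FPKM or more in 3 or more samples, and the genes that passed were tested on log2(FPKM + 1) with limma 3.58.1 (R 4.3.3; trend; 6 residual and 2.71 prior degrees of freedom), 1 mean per group and no block. P-values were adjusted by Benjamini-Hochberg over all 13687 genes. An exact permutation test of 3 against 3 cannot go below 0.1 and was not used. The script was tested on simulated data. Alternatives were another pseudocount, other filters, quantile scaling, TPM, no trend, 2-group fits, a replicate block, each sample left out, the 2 libraries that lay apart left out, and limma-voom on recovered reads.

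The members and lists were chosen with earlier results of these data known. All members are named. Of each pathway list, at most 3 tested genes with the smallest p against vehicle are eligible to be named per dose, and the other called genes named are given by direction only. Likeness takes the 3 nearest genes. Some genes these rules name are not reported here. Bcl2a1c was not analysed here. Member promoters matched by symbol for 10 of 10 in the RefSeq table (15 windows).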

Additional observations from a re-analysis of the deposited data

How the results depend on the processing

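Of 561 values for single members under the alternatives, 520 kept their direction and their side of the threshold, 12 lost a call, 10 gained one and 19 changed sign, none of the last being called. Calls of Bcl2l1, Bbc3 and Bcl2l11 at both doses, of Mcl1 at 1 mg/kg and of Bcl2a1d at 0.1 mg/kg held in every alternative. Members called at 0.1 mg/kg numbered 5 when a mean of at least 5 FPKM was asked (7 members tested) and 5 (without vehicle sample 2) to 9 with 1 sample left out. They numbered 4 to 5 at 1 mg/kg and 0 to 1 between the doses with 1 sample left out, and 3 between the doses without both libraries that lay apart. The Bcl2 call at 0.1 mg/kg was lost with no filter (adjusted p = 0.0943) and with TPM (0.0685).

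Whether equal replicate numbers pair the samples was not settled. Correlations of same-numbered deviations were 0.19, 0.13 and 0.09 for vehicle with 0.1 mg/kg, beside -0.14 to 0.036 for different numbers. For vehicle with 1 mg/kg they lay between -0.06 and 0.0006, beside -0.10 to 0.15. Between the doses they were -0.24, -0.44 and 0.28, beside -0.48 to 0.52. Deviations from a group mean depend on one another, so these values cannot exclude pairing. With the replicate block 8, 4 and 0 members were called, as without it.

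Changes of sign at 1 mg/kg were -0.0065 for Bax and -0.023 for Bak1 with quantile scaling, -0.016 for Bcl2a1b, -0.064 for Bax and -0.078 for Bak1 with TPM, and 0.047 for Bcl2a1a, -0.050 for Bcl2a1b and -0.039 for Bax without both libraries. Between the doses Bbc3 was -0.035 without both libraries. With 1 sample left out, Bcl2a1a ranged from -0.28 to 0.047, Bcl2a1b from -0.050 to 0.20, Bcl2a1d from -0.081 to 0.047, Bax from -0.039 to 0.070 and Bak1 from -0.11 to 0.086 at 1 mg/kg, and Bbc3 from -0.050 to 0.23 between the doses. The cause was not tested.

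Over all genes, 5781 called at 0.1 mg/kg (2952 higher, 2829 lower) became 2403 higher and 3552 lower with quantile scaling and 2368 and 3790 with TPM, and 3414 to 7074 in all with 1 sample left out. The 6277 at 1 mg/kg (2833 higher, 3444 lower) became 4159 of 8179 genes tested with the stricter filter and 2447 higher and 4173 lower with TPM, which moved the median of all genes to -0.12. They ranged from 4129 (without vehicle sample 3) to 7373 (without sample 1 at 1 mg/kg, 3849 higher and 3524 lower) with 1 sample left out, and were 8392 (4298 higher, 4094 lower) without both libraries that lay apart. At 0.1 mg/kg 8424 were called without both (4371 higher, 4053 lower). The 2 genes between the doses became 133 without sample 2 at 0.1 mg/kg and 465 without both libraries. The Bcl2a1 genes, at 77 reads and up, carry the most counting error of the members.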
